A study of Mus musculus with 60 samples.

Results

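Tet1 knockout (KO) embryonic stem cells were followed by H3K27me3 CUT&RUN over the first days of neural differentiation, and the peaks called at day 2 were set against those called at day 0 within each of 2 KO lines, KO15 and KO25. These are 4 of the 30 H3K27me3 libraries of the series, which holds 60 samples in all, since each antibody library has a control IgG partner. Day 2 cells had been plated on gelatin in serum-free N2B27 medium with the growth factor bFGF, and day 0 cells were embryonic stem cells grown with serum and depleted of their feeder fibroblasts. By the study's methods KO15 carries the Tet1 tm1Koh allele on a mixed B6 and 129S6 background, while KO25 is not characterised there. Neither line received an inhibitor. Wild-type lines WT70 and WT72 and the lines CM40 and CM59, whose TET1 is catalytically inactive (MUT), were sampled on the same days and serve here only as a comparison. The methods of the study describe KO15 as derived from a male blastocyst and MUT lines as single clones of the line WT7, and do not describe the origin of KO25. Title, cell line and genotype labels of both KO25 samples name that line, while their free-text description names WT70 files. Title, cell line and genotype were followed, and the counts of gained and lost regions and promoters are also given for KO15 alone. The Tet1 promoter held no H3K27me3 peak in any library of the 3 genotypes on these days, so these data contain no check of the knockout itself.

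H3K27me3 is deposited by Polycomb repressive complex 2 (PRC2) on the chromatin of genes that are kept silent or poised. In embryonic stem cells it covers CpG-rich promoters of developmental regulators, many of which also carry the activating mark H3K4me3. As stem cells leave the naive state, genes of naive pluripotency are silenced, and genes of the later lineages remain under Polycomb until their own lineage is chosen. TET1 oxidises methylated cytosine at CpG sites and binds at many of the same CpG-rich promoters. In CUT&RUN an antibody guides a nuclease that releases the bound fragments, and the peak caller SEACR joins stretches of signal into peaks. A region here is a stretch of the mouse genome (GRCm38.p6, mm10) in which peaks of any library overlap, kept if at least 2 of the 30 libraries had a peak there, which gave 3818 regions. A region or a promoter, taken as 1.5 kb to either side of any start of a protein-coding transcript, was called in a library when a peak overlapped it. Gained means called at day 2 and not at day 0 of the same line, and lost means called at day 0 and not at day 2.

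The promoters below stand for what changed. Gbx2 and Klf4, 2 regulators of naive pluripotency (Gbx2 also patterns the midbrain and hindbrain later), and Bmp4, a ligand that drives mesoderm and opposes neural fate, were gained in both lines. With only the 75% of peaks with the most signal kept, Klf4 was gained in 1 line. Nes, which encodes the neural progenitor filament nestin, and Brsk2, a kinase of neuronal polarity, were lost in both lines, Nes at the reported peak numbers only. Each sequence is from RefSeq on GRCm38.p6 and runs 5′ to 3′ on the strand of the gene over 300 bases, from 250 before to 50 after a transcript start, with every CG dinucleotide in capitals.
Gbx2, minus strand, chr1:89931127-89931426: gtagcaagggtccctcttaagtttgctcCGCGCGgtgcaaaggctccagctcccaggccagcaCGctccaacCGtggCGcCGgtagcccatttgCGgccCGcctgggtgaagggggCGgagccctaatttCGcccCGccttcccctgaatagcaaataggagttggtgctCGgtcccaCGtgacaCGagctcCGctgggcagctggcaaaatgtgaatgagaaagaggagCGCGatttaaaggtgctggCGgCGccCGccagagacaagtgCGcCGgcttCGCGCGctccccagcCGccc
Klf4, minus strand, chr4:55532426-55532725: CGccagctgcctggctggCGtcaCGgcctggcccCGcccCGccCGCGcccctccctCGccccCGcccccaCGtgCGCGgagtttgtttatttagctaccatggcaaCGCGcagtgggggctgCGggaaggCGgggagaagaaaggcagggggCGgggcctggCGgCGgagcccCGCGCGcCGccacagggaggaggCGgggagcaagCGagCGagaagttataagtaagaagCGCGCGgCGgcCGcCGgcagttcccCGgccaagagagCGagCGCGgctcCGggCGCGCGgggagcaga
Bmp4, minus strand, chr14:46390620-46390919: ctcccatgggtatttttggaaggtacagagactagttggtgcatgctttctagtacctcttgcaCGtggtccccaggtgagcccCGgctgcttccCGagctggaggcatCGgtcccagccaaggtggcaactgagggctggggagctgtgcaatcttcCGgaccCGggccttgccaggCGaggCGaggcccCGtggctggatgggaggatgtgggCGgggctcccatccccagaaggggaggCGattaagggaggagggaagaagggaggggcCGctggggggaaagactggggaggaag
Nes, plus strand, chr3:87970843-87971142: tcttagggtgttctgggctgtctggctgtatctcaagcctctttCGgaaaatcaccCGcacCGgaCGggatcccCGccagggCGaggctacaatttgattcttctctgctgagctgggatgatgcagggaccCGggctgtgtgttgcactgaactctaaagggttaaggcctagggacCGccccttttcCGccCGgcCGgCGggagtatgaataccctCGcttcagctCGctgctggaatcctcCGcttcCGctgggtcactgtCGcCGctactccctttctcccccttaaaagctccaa
Brsk2, plus strand, chr7:141949501-141949800: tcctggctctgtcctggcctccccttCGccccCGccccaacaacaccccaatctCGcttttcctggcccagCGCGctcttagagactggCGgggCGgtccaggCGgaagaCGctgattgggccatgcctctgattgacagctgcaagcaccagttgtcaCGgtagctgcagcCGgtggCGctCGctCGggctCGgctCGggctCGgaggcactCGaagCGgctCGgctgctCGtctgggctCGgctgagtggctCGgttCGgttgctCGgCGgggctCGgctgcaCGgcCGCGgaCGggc
The letters CG, which read the same on both strands, occurred 27 times in the Gbx2 window, 40 times at Klf4 and 12 times at Bmp4. They occurred 18 times at Nes and 31 times at Brsk2. As many or more were present in 15.5% of all promoters of that table for Gbx2, 3.91% for Klf4, 39.6% for Bmp4, 29.7% for Nes and 10.6% for Brsk2. Of the 5 windows Klf4 held the most and Bmp4 the fewest.

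The overall layout of the mark changed the same way in both lines: fewer peaks, each wider, covering more of the genome. KO15 had 1316 peaks at day 2 and 1908 at day 0, and KO25 had 2075 at day 2 and 2871 at day 0. The log2 ratio of day 2 over day 0 was -0.54 in KO15 and -0.47 in KO25 (mean -0.50 ± 0.05, SD, n = 2 lines). The drop lay among narrow peaks, since the number of peaks of at least 5 kb went the other way, with a mean log2 ratio of 0.66. Peaks covered 15.0 Mb at day 2 and 11.3 Mb at day 0 in KO15, and 20.5 Mb at day 2 and 14.3 Mb at day 0 in KO25 (mean log2 ratio 0.46 ± 0.08, SD, n = 2 lines). The median peak was 9156 bp wide at day 2 and 5012 bp at day 0 in KO15, and 7805 bp at day 2 and 4119 bp at day 0 in KO25. Peaks of 10 kb or more made up 41.9% at day 2 and 8.33% at day 0 in KO15, and 30.6% at day 2 and 5.85% at day 0 in KO25. On covered bases, median width and the share of wide peaks both day 2 libraries lay above both day 0 libraries, whereas peak number overlapped between the days, since KO25 at day 2 had more peaks than KO15 at day 0. With 2 pairs of libraries an exact permutation test cannot give a p below 0.5, so no test of these totals was made.

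The deposited signal is not scaled for sequencing depth, and it moved with the widths. The mean signal per base of peak was 21.9 at day 2 and 13.6 at day 0 in KO15, and 20.1 at day 2 and 8.7 at day 0 in KO25. Its part in the number and width of peaks was not tested. Read depth per library is not known from these files.

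**Figure D1:**
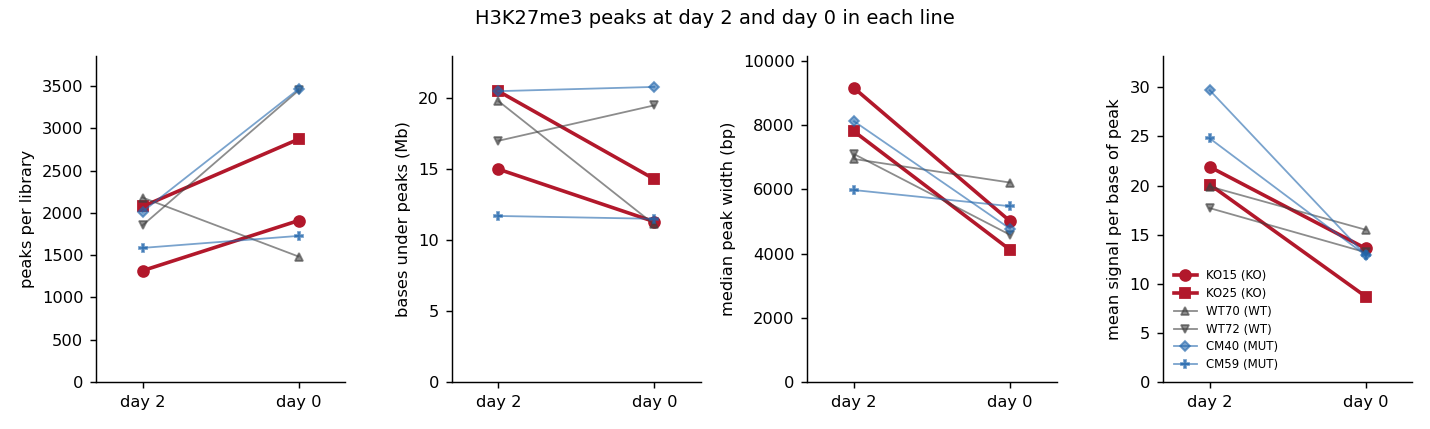
Peaks per library, bases under peaks in Mb, median peak width in bp and mean signal per base of peak (vertical axes, from left to right) at day 2 and day 0, with 1 point per library and a line joining the libraries of 1 cell line (KO red, WT grey, MUT blue). In both KO lines peak number is lower and the other 3 measures are higher at day 2, whereas in the WT lines peak number and covered bases move in opposite directions.

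The 2 WT lines went opposite ways in peak number and covered bases. In both MUT lines peak number fell too, by unlike amounts, while covered bases barely moved. The log2 ratio of peak number was -0.54 and -0.47 in the KO lines, against 0.56 in WT70 and -0.90 in WT72, and against -0.78 in CM40 and -0.12 in CM59. That of covered bases was 0.40 and 0.52 in the KO lines, against 0.83 and -0.20 in the WT lines and -0.02 and 0.02 in the MUT lines. The median peak was wider at day 2 in all 6 lines, by a log2 ratio of 0.87 in KO15 and 0.92 in KO25, against 0.16 in WT70, 0.63 in WT72, 0.77 in CM40 and 0.13 in CM59. Both KO values lay above those of the other 4 lines. When the 2 KO lines are set against the 2 lines of 1 other genotype, an exact permutation test cannot give a p below 0.333.

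Of the 3818 regions, 2786 were called in at least 1 of the 4 KO libraries and 980 in all 4. KO15 gained 245 regions and KO25 gained 410, of which 134 were the same regions, or 3.51% of all regions (54.7% of those gained in KO15 and 32.7% of those gained in KO25). KO15 lost 652 and KO25 lost 781, of which 300 were the same, or 7.86% of all regions (46% of those lost in KO15 and 38.4% of those lost in KO25). Only 20 regions were gained in one line and lost in the other. By promoters, 147 genes were gained in both lines, 4.62% of the 3179 genes whose promoter was called in at least 2 libraries, and 236 were lost in both, 7.42% of them. Losses outnumbered gains at the deposited numbers of peaks. When both libraries of a line held the same number of peaks, those with the most total signal, 228 regions were gained in both lines and 88 were lost in both, so that the order turned. This setting removes peaks only from day 0, the library with more of them in each line, so by construction it can only add gains and take away losses. With the 1316 strongest peaks in each of the 4 libraries, 247 were gained and 169 lost, and 110 of the 134 and 69 of the 300 were among them.

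Both gained and lost regions had fewer bases under peaks and less signal than regions called in all 4 libraries. The classes were chosen by the same peak calls, which favours strong regions in the last class, so this difference is given by value only. Gained regions had a median of 8.47 kb under peaks in KO15 and 7.9 kb in KO25 at day 2, against 9.73 and 10.0 kb for regions called in all 4. Lost regions had a median of 4.26 and 3.67 kb at day 0, against 6.03 and 6.26 kb. The median width of the merged region was 10.6 kb for gained and 6.21 kb for lost regions, against 12.7 kb for regions called in all 4 libraries and 7.38 kb for all kept regions, a measure that includes the peaks by which the classes were chosen. Within the day 0 library, regions later lost had a median signal percentile of 20.8 in KO15 and 40.8 in KO25 among called regions, against 68.4 and 76.9 for regions called in all 4. Gained regions had a median percentile of 25.1 in the day 2 library of KO15 and 51.3 in that of KO25, against 57 and 72 for regions called in all 4. A promoter was present in 83.6% of gained and 79% of lost regions, against 78.5% of all. Base composition barely set them apart, with a median GC content of 50.5% in gained and 51.3% in lost regions against 50.6% in all, and 2.27 and 2.39 CpG per 100 bp against 2.35.

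The gained promoter regions covered by the most bases are described first. The Gbx2 region (chr1:89916386-89946805) had 27 kb under peaks in KO15 and 29.8 kb in KO25 at day 2, against 0 kb in both day 0 libraries. Efnb1, an ephrin ligand of cell sorting and axon guidance, had 22.5 and 24.2 kb at day 2 against 0 kb in both at day 0 (chrX:99126713-99172305). The imprinted gene Peg12 had 16.3 and 24.2 kb (chr7:62436775-62467622), and Tead1, a transcription factor of the Hippo pathway, had 21.4 and 14.6 kb at day 2 (chr7:112672381-112693848). All 4 regions thus had more than 14 kb under peaks in both lines at day 2, and none held a peak at day 0. At Efnb1 in KO15 this was the total of 2 peaks. The neurotrophin receptor gene Ngfr had 16.1 and 17.6 kb, the kinase gene Mapkapk2 14.2 and 17.4 kb, and the region of Bmp4, which also takes in the predicted gene Gm15217, 15.6 and 15.5 kb (chr14:46379338-46400248). The last 3 of the 10 were the protocadherin genes Pcdhgc3, Pcdhgc4 and Pcdhgc5 (16.6 and 13.4 kb), the G-protein-coupled receptor genes Mas1 and Mrgprh (13.1 and 13.1 kb), and the cell adhesion genes Kirrel2 and Nphs1 of the kidney slit diaphragm (11 and 14.9 kb). Where 2 or more genes share a region, its values cannot be divided between them.

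The lost promoter regions covered by the most bases at day 0 included neural and structural genes. The region of Myh6, the cardiac myosin heavy chain, and the predicted gene Gm17428 had 0 kb in both lines at day 2, against 11.4 kb in KO15 and 15.1 kb in KO25 at day 0 (chr14:54961324-54980687). Nes had 0 kb at day 2 against 8.79 and 16.0 kb at day 0 (chr3:87969746-87988855), and Zfp467 with Sspo (SCO-spondin, a protein of the Reissner fibre in the brain ventricles) 0 kb against 12.7 and 8.76 kb. Brsk2 had 0 kb at day 2 against 7.11 and 7.79 kb at day 0 (chr7:141945810-141955884), and Col5a1, a fibrillar collagen gene, 0 kb against 7.25 and 8.55 kb. At day 0 each of these regions had 7 kb or more under 1 or 2 peaks in both lines, and none was called at day 2. The other 5 were the regions of Bsn, a protein of the presynaptic active zone (13.4 and 5.99 kb at day 0), the secreted kinase gene Pkdcc (9.18 and 9.61 kb), Psd2 (9.27 and 7.69 kb), the sulfotransferase gene Chst1 (5.9 and 10.1 kb) and the growth factor gene Pgf (6.0 and 8.65 kb). Another start of Bsn, outside this region, kept a call in KO25 at day 2, so Bsn is not among the lost promoters. With equal peak numbers within each line Brsk2, Col5a1, Myh6, Zfp467, Pkdcc, Psd2 and Chst1 stayed lost in both lines, while Nes, Sspo, Pgf and Gm17428 were lost in 1, and Nes was lost in neither with equal numbers in all 4 libraries.

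**Figure D2:**
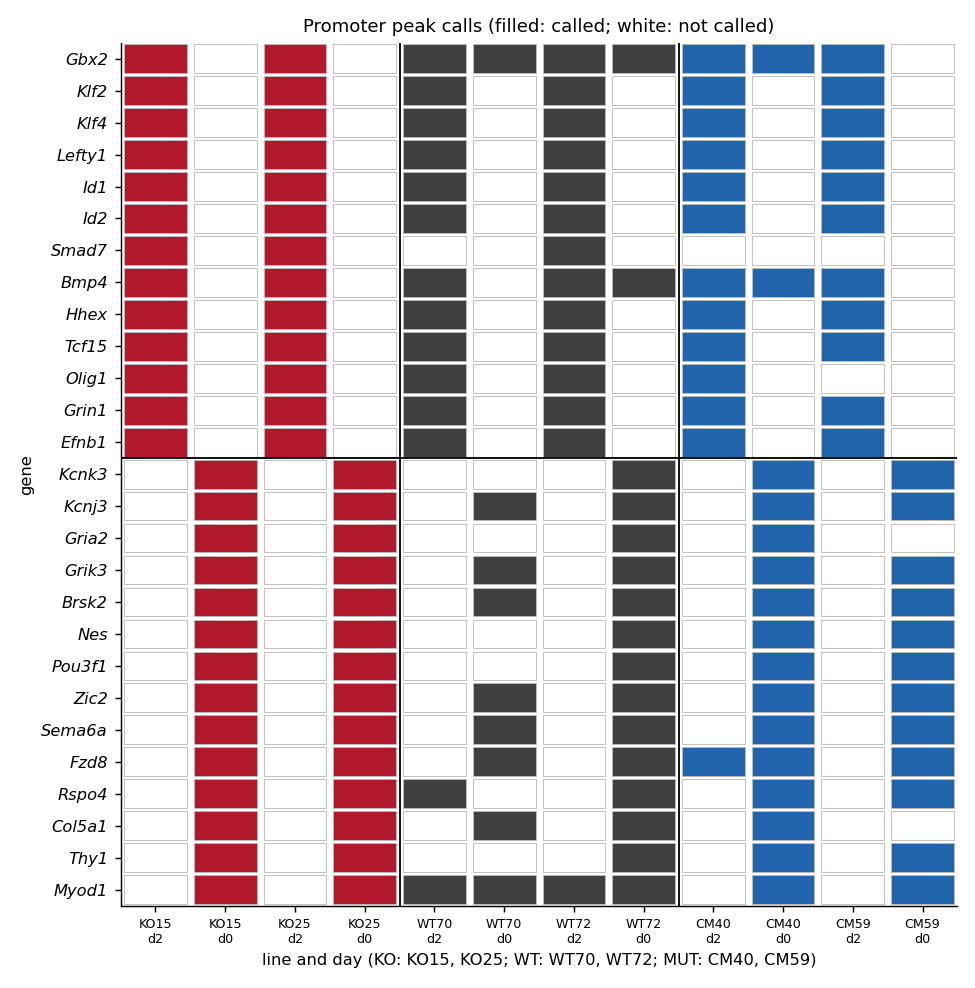
Promoter calls of 27 genes (rows) in each line at day 2 and day 0 (columns), filled where a peak overlapped the promoter (KO red, WT grey, MUT blue). The upper 13 genes were gained and the lower 14 lost in both KO lines; in WT and MUT most of the upper genes were called at day 2, and most of the lower genes were called at day 0 in WT72 and CM40.

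Among genes of naive pluripotency, promoter calls were gained and none was lost in both lines. Of 21 genes in this list, 13 had a promoter called in at least 2 libraries, and 3 of these (23.1%, against 4.62% of all such promoters) were gained in both lines, namely Klf2, Klf4 and Gbx2. In KO15 alone 4 of the 13 were gained (30.8%, against 8.43% of all) and 0 lost. Klf2 and Klf4 are Krüppel-like factors that sustain naive embryonic stem cells. With the 75% of peaks with the most signal, each was gained in only 1 line, while Gbx2 stayed gained in both. The Klf4 region had 5.23 kb in KO15 and 9.76 kb in KO25 at day 2 against 0 kb in both at day 0, and Klf2 5.44 and 5.46 kb against 0 kb. The promoter share of the list was 33.3% and 38.1% at day 2 against 14.3% in both lines at day 0, with no overlap between the days. In genes this was 7 and 8 of the 21 listed against 3 in each line. The share of all callable promoters, which has a different base, was 39.7% and 58.2% at day 2 against 48.1% and 63.6% at day 0. Tbx3, a T-box factor of the same network, was called in all 4 libraries, over 40.9 and 38.6 kb at day 2 against 10.2 and 12 kb at day 0. Prdm14, which holds back differentiation in naive cells, was called at day 2 in both lines (7.38 and 8.77 kb) and at day 0 only in KO25 (2.66 kb). Esrrb was called in all 4 at a start where peaks covered 9.21 and 9.36 kb at day 2 against 8.13 and 4.88 kb at day 0, and a second region inside the gene, at another start, was gained in both lines, with 9.91 and 10.5 kb at day 2 against 0 kb at day 0 (chr12:86466824-86477349). Nr0b1 was called in none of the 4.

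BMP and Nodal signals act against neural fate, and part of their targets are feedback inhibitors. Of 18 antagonists and targets that could be called, 4 (22.2%, against 4.62% of all callable promoters) were gained in both lines: Id1 and Id2, which encode dominant-negative helix-loop-helix proteins induced by BMP, Smad7, an inhibitory SMAD, and Lefty1, a Nodal antagonist. Id1 had 8.49 and 9.74 kb at day 2 against 0 kb in both lines at day 0, Id2 6.13 and 9.2 kb against 0 kb, and Lefty1 5.77 and 5.72 kb against 0 kb. Smad7 had 8.88 and 7.72 kb against 0 kb, though with equal peak numbers in the 4 libraries it was gained in only 1 line. With the 75% of peaks with the most signal, Id2 and Smad7 were each gained in only 1 line. Chrd, encoding the BMP antagonist chordin, and Tmeff2 were lost in both lines (4.93 and 5.38 kb at day 0 for Chrd), 11.1% of the list against 7.42% of all. In KO15 alone the counts were again 4 and 2. With equal peak numbers within each line Chrd was lost in only 1 line, and with equal numbers in all 4 libraries in neither. Of all 24 listed genes, callable or not, 41.7% and 54.2% had a promoter peak at day 2, against 33.3% in both lines at day 0. The share of all callable promoters was 39.7% and 58.2% at day 2 against 48.1% and 63.6% at day 0. The bases of these shares differ, so only their directions between days can be compared, not their levels. Among the ligands only Bmp4 was gained in both lines, 1 of 15 that could be called (6.67%, against 4.62% of all).

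Neuronal effector genes had shares of losses and gains near those of all genes. Of 74 callable genes of neuronal function (channels, receptors and synaptic proteins), 8 (10.8%, against 7.42% of all callable promoters) were lost in both lines and 3 (4.05%, against 4.62%) were gained. In KO15 alone 15 were lost (20.3%, against 16.8% of all) and 4 gained. Those lost were the potassium channel genes Kcnk3 and Kcnj3, the glutamate receptor genes Gria2 and Grik3, the GABA receptor genes Gabra4 and Gabrb1, the serotonin receptor gene Htr1b, and Brsk2. Gabra4 and Gabrb1 lie in 1 region and are 1 observation. Kcnk3 had 0 kb in both lines at day 2 against 5.45 and 7.35 kb at day 0, and Kcnj3 0 kb against 3.94 and 3.77 kb. Those gained were the NMDA receptor gene Grin1 (8.1 and 8.42 kb at day 2 against 0 kb at day 0), the muscarinic receptor gene Chrm4 and the serotonin transporter gene Slc6a4. With the 75% of peaks with the most signal, Chrm4 and Slc6a4 were each gained in only 1 line. Chrm4 was also gained in only 1 line with equal peak numbers in all 4 libraries. Of all 86 listed genes, callable or not, 50% and 59.3% had a promoter peak at day 2 against 62.8% and 73.3% at day 0. The share of all callable promoters, which has a different base, was also lower at day 2 in each line (39.7% and 58.2%, against 48.1% and 63.6% at day 0). These regions were mostly narrow, and with equal peak numbers within each line Brsk2 and Kcnk3 stayed lost in both lines while Kcnj3, Grik3, Gabra4 and Gabrb1 were lost in 1 line and Gria2 and Htr1b in neither. That left 2 genes lost in both lines and the 3 gained ones, a setting that can take away losses and no gains.

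Transcription factors of the neural lineage were in 2 lists. Of 45 callable neuronal transcription factors, 2 (4.44%, against 4.62% of all callable promoters) were gained in both lines, Olig1 of the oligodendrocyte lineage and Tfap2b. With the 75% of peaks with the most signal, Olig1 was gained in only 1 line. In both lines 0 were lost, against 7.42% of all. Of all 47 listed genes, callable or not, 91.5% had a promoter peak in both lines at day 2 against 83% in both at day 0. The share of all callable promoters, which has a different base, was lower at day 2 in each line. In the neuroectoderm list of 46 callable genes 2 were gained (4.35%), Gbx2 among them, and Zic2 was lost (2.17%). Under each alternative number of peaks Zic2 was lost in only 1 line. Zic2 and Pou3f1, both factors of the formative state that follows naive pluripotency, were the 2 lost genes of the formative and primed list. They made up 11.8% of its 17 callable genes, against 7.42% of all callable promoters. The list gained 0, against 4.62% of all. Pou3f1 had 0 kb at day 2 against 5.15 and 5.2 kb at day 0, and stayed lost in both lines with equal peak numbers within each line. Fgf5, another marker of that state, was called only in KO25 at day 0 (1.49 kb), and Dnmt3b and Tcf7l1 were called in none of the 4.

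The other lists held few changes. Lefty1 in the primitive streak list, Hhex among endoderm genes, Mef2c and Bmp4 in heart and blood mesoderm and Tcf15 in somite mesoderm were gained in both lines, and Myod1, the master factor of skeletal muscle, was the only gene of these 4 lists lost in both. In list order the gained shares of callable genes were 4.55%, 6.67%, 10.5% and 5%, against 4.62% of all, and Myod1 was 5% of its list, against 7.42%. With the 75% of peaks with the most signal, Hhex and Mef2c were each gained in only 1 line. Of the Wnt genes, the secreted inhibitor gene Sfrp1 was gained, and the ligand Wnt16, the receptor Fzd8, the inhibitor Nkd2 and the R-spondin Rspo4 were lost. Lost were 5.56% of 18 callable ligands, 10% of 10 receptors and 12.5% of 16 inhibitors and targets, of which 6.25% were gained. Of the 29 callable axon guidance genes Efnb1 was gained (3.45%, against 4.62% of all callable promoters). Sema6a, Slit1 and Unc5b were lost (10.3%, against 7.42% of all). Gli2 of the Hedgehog pathway (12.5% of 8 callable genes), the Notch target Nrarp (8.33% of 12) and the trophoblast factor Tead4 (6.67% of 15) were gained. The trophoblast keratin Krt7 was lost (6.67% of its list). Of these losses, with equal peak numbers within each line, Fzd8, Slit1, Unc5b and Krt7 remained in only 1 line and Wnt16 in neither, while Nkd2, Rspo4, Sema6a and Myod1 remained in both. All 39 Hox genes were called in both lines at day 2, with 38 called in all 4 libraries. FGF ligands (16 callable genes), retinoic acid genes (9), germline genes (1) and genes of the Polycomb, TET and DNMT machinery (9) had 0 gained and 0 lost in both lines. With so few callable genes these counts do not set the lists apart from all callable promoters (4.62% gained and 7.42% lost). None of 25 housekeeping genes was called in any of the 4.

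Day 0 cells came off feeder fibroblasts, so genes of those cells were followed too. Of 19 such genes 12 could be called, and 4 of these (33.3%, against 7.42% of all callable promoters) lost the promoter call in both lines, namely the matrix genes Col5a1 and Fbn1, Thy1 and the mesenchymal factor Twist1, which is also in the neural crest list, while Pdgfrb was gained. In KO15 alone 5 of the 12 were lost (41.7%, against 16.8% of all) and 2 gained. Twist1 was lost in neither line under any alternative number of peaks. Of all 19 listed genes, callable or not, 26.3% in KO15 and 31.6% in KO25 had a promoter peak at day 2, against 42.1% and 52.6% at day 0. The share of all callable promoters given above, which has a different base, was lower at day 2 too. A repressive mark is measured here and not transcripts, and the part of remaining feeder cells in the changes above was not tested. Twist1 and Pdgfrb changed by shifts of peak edges, since the regions around them held peaks in all 4 libraries (8.32 and 14.3 kb at day 2 against 6.37 and 9.28 kb at day 0 around Twist1).

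**Figure D3:**
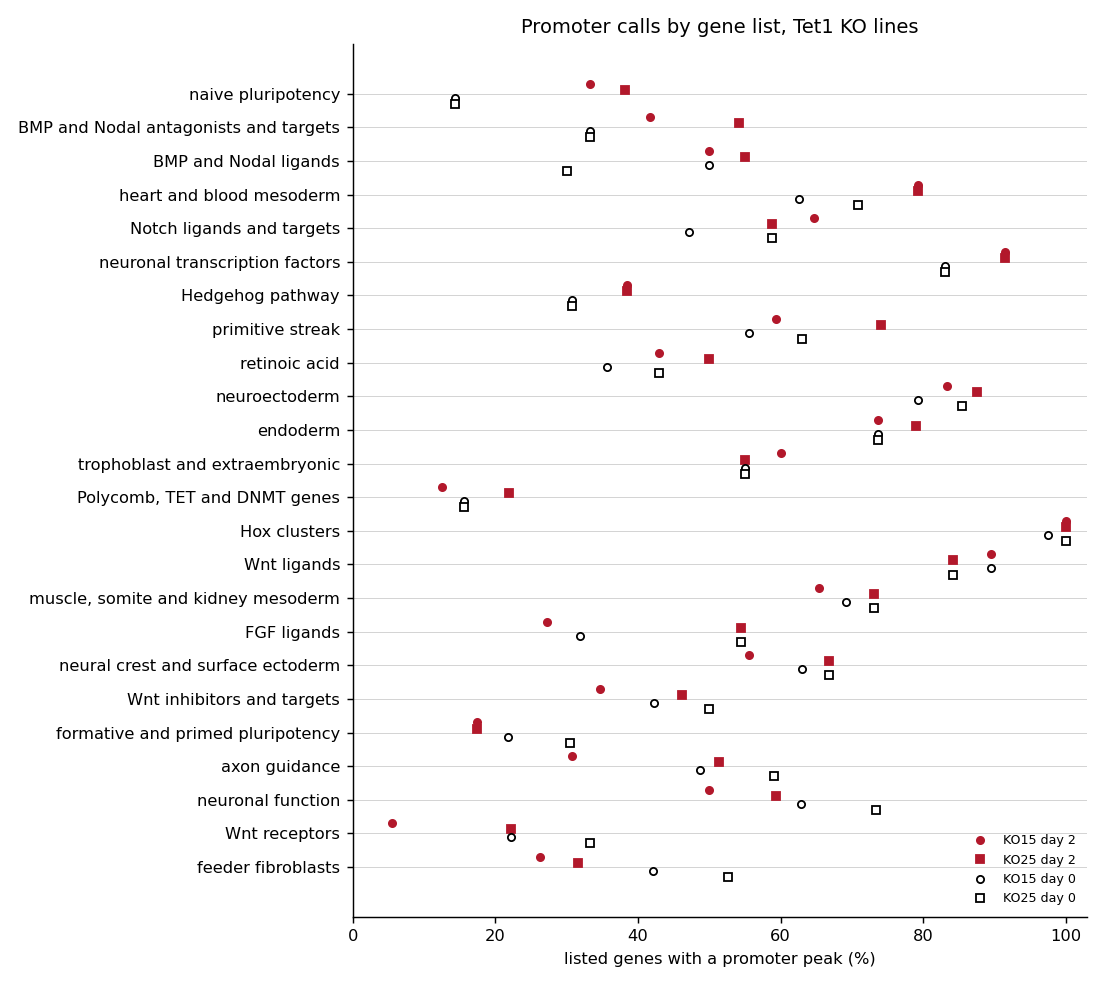
Share of listed genes with a promoter peak in % (horizontal axis) for each gene list with at least 8 callable genes (vertical axis), with 1 point per library (red, day 2; open, day 0; circles KO15, squares KO25). Naive pluripotency genes lie at 33.3% and 38.1% at day 2 and at 14.3% at day 0, while 6 lists (neuronal function, axon guidance, Wnt receptors, Wnt inhibitors and targets, formative and primed pluripotency, and feeder genes) have a lower share at day 2 than at day 0 within each line, as all callable promoters do.

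Most shared regions were wider at day 2. Over the 980 regions called in all 4 KO libraries, peaks covered a median of 9.73 kb at day 2 and 6.03 kb at day 0 in KO15, and 10.0 kb at day 2 and 6.26 kb at day 0 in KO25. The median log2 change of covered bases was 0.62 in KO15 and 0.61 in KO25, a mean of 1.53-fold. In KO15 93.5% of the regions were wider at day 2 and 24.2% more than 2-fold wider, and in KO25 91.8% and 24%. Of these regions 849 (86.6%) were wider in both lines and 13 narrower in both, and 101 were more than 2-fold wider in both. Regions without fusion of neighbouring peaks were wider to the same degree: the 829 regions of KO15 and 745 of KO25 that held 1 peak at both days had medians of 0.63 and 0.64, and those in which several peaks became 1 numbered 109 in KO15 and 178 in KO25. Around 753 promoters, the median peak edge lay 1.46 kb farther upstream in KO15 and 1.45 kb in KO25, and 1.56 and 1.83 kb farther downstream, so that peaks reached farther to both sides. By mean width over the 4 libraries, the medians in KO15 and KO25 were 0.67 and 0.69 in the narrowest of 3 groups of about equal size, 0.60 and 0.65 in the middle group, and 0.58 and 0.54 in the widest.

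Region by region, 4 libraries allowed little. With limma and the line as a block, 0% of the 980 regions passed an adjusted p of 0.05 as wider and 0% as narrower, the lowest adjusted p being 0.052, while 464 were wider and 0 narrower at an unadjusted p under 0.05. Without the replicate block the same tool called 187 wider and 0 narrower, and with the spread estimated over the 12 libraries of KO, WT and MUT at both days it called 280 wider and 0 narrower. The widths of single regions are therefore given as values.

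The same regions were followed in the other genotypes. Where called at both days in the line, their median log2 change was 0.62 in KO15 and 0.61 in KO25, against 0.35 (895 regions) in WT70, 0.22 (959) in WT72, 0.28 (975) in CM40 and 0.04 (903) in CM59. Both KO lines lay above the other 4. A difference could not be assigned to single regions: of 884 regions called in all 8 KO and WT libraries of these days, 0% differed in their width change between KO and WT by the limma interaction (lowest adjusted p = 0.307), with a median difference of 0.28 and with 88 larger and 1 smaller in KO at an unadjusted p under 0.05. For relative signal 0% differed as well (lowest adjusted p = 0.574), with 38 larger and 22 smaller in KO at an unadjusted p under 0.05.

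**Figure D4:**
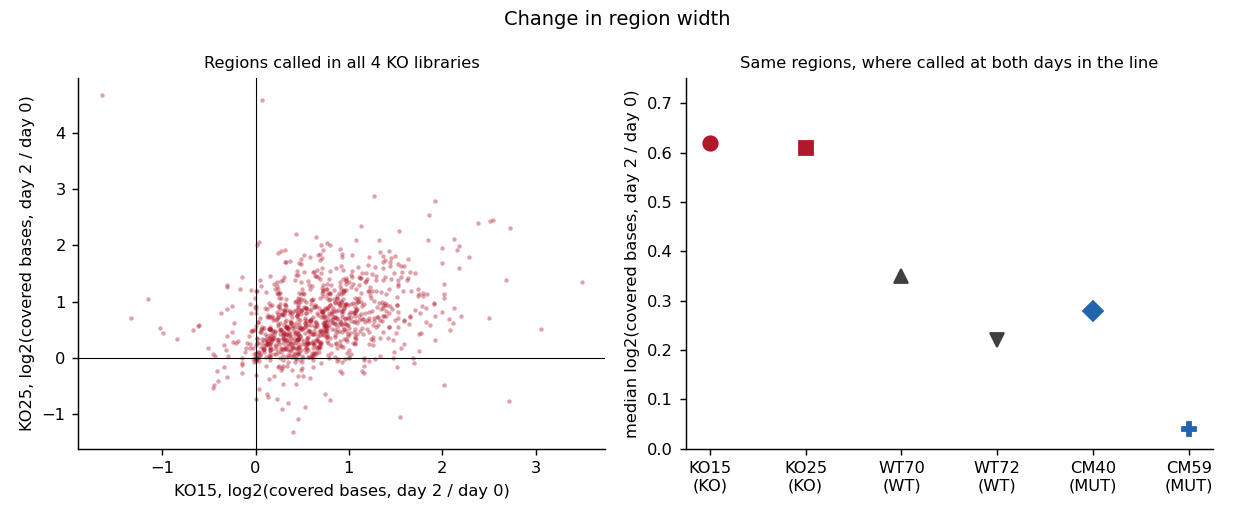
Left, log2 ratio of covered bases, day 2 over day 0, in KO15 (horizontal axis) and KO25 (vertical axis) for each of the 980 regions called in all 4 KO libraries. Right, median of that ratio over the same regions in each of the 6 lines, where the region was called at both days: 0.62 and 0.61 in the KO lines, and 0.04 to 0.35 in WT and MUT lines.

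The signal of a region was compared after subtracting the median of its library over the 980 regions on the log2 scale, so that values are relative to the median region. At an adjusted p under 0.05 (limma, line as a block), 89 regions (9.08%) had more relative signal at day 2 and 72 (7.35%) had less. The signal is a total over the peak and so contains its width. The 89 with more had a median log2 width change of 1.36, against 0.09 for the 72 with less and 0.63 over all tested regions. Of the 89, 79 held a promoter, and of the 72, 57 did. Without KO25, taking the spread from WT and MUT, the counts were 37 and 11, and without KO15 43 and 30. With the highest signal of the peaks in place of the total, which does not add up over width, 11 regions had more and 28 less, so that the balance turned, and 14 of the 20 named regions were no longer past the threshold. Ntn1, Olig2, Col13a1, Hcn4, Adora1 and Gm1979 still were.

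The largest increase was at Ntn1. Ntn1, encoding the guidance cue netrin 1, had a relative signal of 1.91 in KO15 and 1.87 in KO25 at day 2, against -0.85 and -0.97 at day 0 (log2 change 2.80, SE 0.14, adjusted p = 0.0057 by limma), and its peak covered 22.0 and 22.3 kb at day 2 against 3.35 and 4.52 kb at day 0 (chr11:68379150-68404947). At Tbx3 it was 2.83 and 2.78 at day 2 against 0.70 and 0.68 at day 0 (log2 change 2.12, SE 0.14, limma adjusted p = 0.00594), over 40.9 and 38.6 kb against 10.2 and 12 kb (chr5:119650484-119693058). At Olig2, a factor of motor neuron and oligodendrocyte progenitors, it was 1.51 and 1.40 against -0.43 and -0.69 (log2 change 2.02, SE 0.15, limma adjusted p = 0.00659), over 17.0 and 16.9 kb against 5.74 and 5.46 kb. In each of these the 2 lines differed far less than the 2 days. Tnfrsf25 and Espn shared a region of 20.8 and 20.6 kb at day 2 against 3.65 and 3.79 kb at day 0 (log2 signal change 2.09). The others of the first 10 were Cdkn2a and Cdkn2b, the cell cycle inhibitor locus (2.05, with 2.86 kb in KO15 and 13.0 kb in KO25 at day 0 against 32.1 and 33.2 kb at day 2), Cdx1 of the primitive streak with Pdgfrb (1.75), Col13a1 (1.70), Adamtsl5 and Plk5 (1.69), Notum, a secreted Wnt inhibitor (1.63), and Zfp423 (1.57).

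Of the 72 regions with less relative signal, 23 (31.9%) had a fitted width change below 0, against 4.8% of all tested regions, and 49 one above it. Fgf9, an FGF ligand, had -0.58 in KO15 and -0.64 in KO25 at day 2, against 0.99 and 0.94 at day 0 (log2 change -1.57, SE 0.14, limma adjusted p = 0.0141), with 8.03 and 7.92 kb at day 2 against 11.1 and 11.5 kb at day 0. It was the clearest narrowing among the named regions, at a log2 width change of -0.50, which did not pass the width test (adjusted p = 0.118, limma). Otx2, a head and formative-state factor, had -0.23 and -0.85 at day 2 against 0.49 and 1.15 at day 0 (log2 change -1.37, SE 0.32, limma adjusted p = 0.047), with widths that went in opposite directions in the 2 lines (12.4 and 7.87 kb at day 2 against 8.64 and 14.4 kb at day 0). Hcn4, a pacemaker channel gene, had -0.80 and -0.94 against 0.43 and 0.33, over 8.52 and 10.3 kb against 10.0 and 8.47 kb. The days did not overlap in signal at any of these 3, although Otx2 varied most between lines. The other members of the 10 were Adra2b (-1.49), Rtn4rl2 (-1.42), Adora1 (-1.23), Hpcal4 with Nt5c1a (-1.22), Gm1979 (-1.15), Kif19a with Btbd17 (-1.15) and the BMP-related ligand Gdf10 (-1.09).

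By list, called regions are set against the 9.08% of all regions with more and the 7.35% with less. Of 38 regions of neuronal transcription factors 6 had more and 0 less, with Olig2, Pou4f2, Tbr1, Prdm13, Bcl11b and the Dlx5 and Dlx6 locus among them, and a median log2 change of 0.43 against 0.10 over all 980 regions. Of 38 regions of the neuroectoderm list 5 had more, including Nr2f2, Vax1 and the Zic1 and Zic4 locus, and only Otx2 had less. Hand2, Tbx20 and Isl1 of the heart and blood mesoderm list had more (3 of 16 regions), as had 4 of 16 regions of the muscle, somite and kidney list, with Pax3, Pax9 and Nkx3-2 among them, and neither list had a region with less. Of 38 regions of neuronal function genes 3 had more, Slc6a5 among them, and 10 had less, among them Grin2a, Htr1a, Htr6, Cacna1g and the Chat and Slc18a3 locus, with a median of -0.22. Of the 5 regions that hold the Hox clusters, that of Hoxc had more (log2 change 0.67, limma adjusted p = 0.0436). Wnt ligands had 0 of 14 in either direction at a median of 0.06.

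Regulators of the streak and germ layers kept their calls in all 4 libraries, and their signal changes did not pass the test. T, the primitive streak T-box factor, had 17.6 and 17.7 kb under peaks at day 2 against 9.88 and 8.61 kb at day 0 (log2 signal change 0.36, limma adjusted p = 0.136). Eomes had 8.5 and 15.3 kb at day 2 against 5.67 and 4.4 kb at day 0 (0.84, limma adjusted p = 0.0768), and Sox17, of the endoderm, 17.1 and 11.5 kb against 6.28 and 6.12 kb (0.52, limma adjusted p = 0.0742). All 3 had wider peaks at day 2 in both lines with no overlap between days. Of all regions called in all 4 libraries, 86.6% were likewise wider in both lines, so this does not set the 3 apart. Foxa2 had 17.9 and 17.2 kb at day 2 against 14.4 and 9.05 kb at day 0. The neural factors Pax6, Sox1 and Lhx5 changed less in width by value, with Pax6 at 31.6 and 31.8 kb against 23.5 and 28.3 kb, Sox1 at 26.4 and 25.6 kb against 19.8 and 20.3 kb, and Lhx5 at 23.8 and 23.2 kb against 21 and 16.7 kb. By list the median log2 width change was 0.43 for neuroectoderm and 0.74 for neuronal transcription factors, against 0.72 for the primitive streak and 0.75 for endoderm. These differences were not tested. At Sox1 the 3 peaks of each day 0 library were 1 peak at day 2, and at Pax6 and Lhx5 several peaks likewise became 1. The Sox2 and Kif17 promoters were called in none of the 4.

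**Figure D5:**
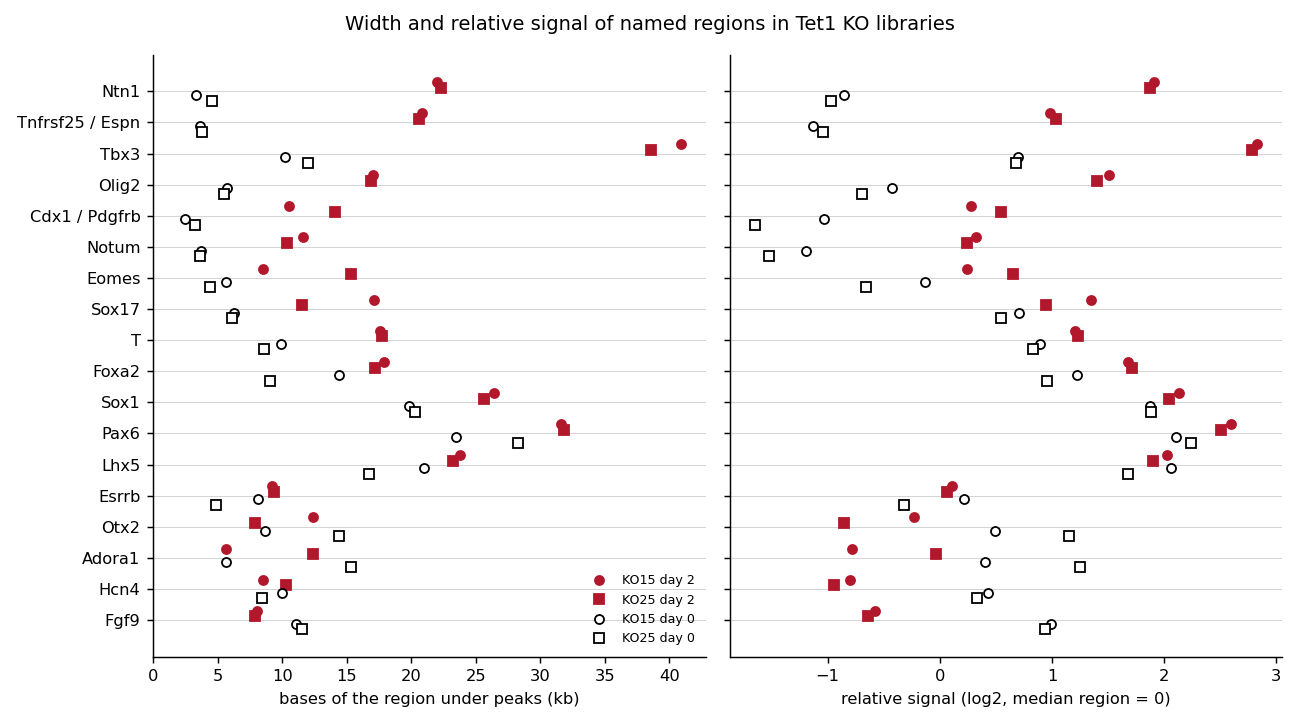
Bases under peaks in kb (left) and relative signal on a log2 scale with the median region of each library at 0 (right) for 18 named regions (rows) in the 4 KO libraries (red, day 2; open, day 0; circles KO15, squares KO25). Day 2 values lie right of day 0 values in both panels for the regions from Ntn1 to Foxa2, and left of them in the right panel for Otx2, Adora1, Hcn4 and Fgf9.

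WT and MUT libraries of the same days helped to set the boundaries of the regions, which were merged over all 30 libraries. Their calls were not used to class a region as gained or lost. Of the 134 regions gained in both KO lines, 65 (48.5%) were gained in both WT lines, against 4.24% of all regions, and 42 (31.3%) in both MUT lines, against 1.78%. Of the 300 lost in both KO lines, 71 (23.7%) were lost in both WT lines, against 2.8%, and 141 (47%) in both MUT lines, against 6.29%. With regions chosen in KO15 alone, 29.4% of the 245 gained were gained in both WT and 18.8% in both MUT lines, and 13.7% of the 652 lost were lost in both WT and 28.8% in both MUT lines. None of the 134 was lost, and none of the 300 gained, in both lines of either genotype. The line WT70 gained 120 of the 134 and lost 74 of the 300, and WT72 gained 69 and lost 255, so that each WT line followed mainly one direction. By promoter calls, the gains of Klf2, Klf4, Lefty1, Id1, Id2, Hhex and Tcf15 were each seen in both lines of all 3 genotypes. The wider region around Id2 was called in CM40 at day 0 as well. Gbx2 differed, in that both WT lines and CM40 were called at day 0 as well as at day 2, whereas neither KO line nor CM59 was called at day 0. Brsk2 was lost between these days in all 6 lines.

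KO libraries of later days show how far these calls persisted. At day 3, 73.1% of the 134 gained regions were called in KO1, another KO line, and 59.7% in KO15, against 43.5% and 38% of all regions, and at day 5 53% and 61.9%, against 50.2% and 62.7%. Of the 300 lost regions 13.3% were called in KO1 and 11% in KO15 at day 3, and 40.7% and 56.3% at day 5. At day 5 the lost regions were still called less often than all regions in both lines, by value, and the gained ones about as often. Brsk2 was called again in 4 of 4 KO libraries of days 3 and 5 without inhibitor, against 0 of 4 WT and 2 of 4 MUT libraries. The Klf4 promoter was called in 4 of 4 of these KO libraries, and in 3 of 4 WT and 3 of 4 MUT libraries.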

How the data were processed

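H3K27me3 CUT&RUN peaks of KO15 and KO25 at day 2 and day 0 were compared within each line. Per the study's methods, the authors used Trim Galore for trimming, Bowtie for alignment to GRCm38.p6 (mm10) and Picard to drop duplicates. SEACR, in stringent mode and with IgG as control, called peaks per library (version not given in the sources used here). The deposited signal of a peak is its total and its highest coverage, in whole numbers and not scaled for depth. Read depth is unknown, so precision rests on the agreement of 2 lines. Region lists of the authors' KO and WT comparison (4 files) were not used.

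Peaks on assembled chromosomes were kept (1 to 3 peaks per KO library lay elsewhere). Merging over the 30 libraries gave 4494 regions, 3818 of them called at least 2 times. Transcript starts came from GENCODE M21 (21853 genes), and overlap needed 1 bp. Line numbers pair the samples, because both days of a number are the same cell line (correlation of line deviations between days 0.03 for width and 0.11 for relative signal over 980 regions), and the line was a block in limma 3.58.1 (R 4.3.3) on log2 covered bases and on log2 total signal minus the library median, with p-values adjusted by Benjamini-Hochberg over all regions tested. Whether the 2 libraries of a group stand for more than 1 culture each is not stated. With the line as a block, p-values measure how far the change between days differed between lines of a genotype, with that spread partly pooled over regions. Scripts were tested on simulated data. Alternatives were equal numbers of peaks, the 75% of peaks with the most signal, 500 bp of overlap, regions of the 4 KO libraries alone, promoter windows of 500 bp and 3 kb, other scalings and leaving out each line.

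Named genes were the 10 gained and 10 lost promoter regions with the most covered bases, the 10 largest relative signal changes in each direction past an adjusted p of 0.05, listed genes gained or lost in both lines, and a set of lineage genes. There were 26 gene lists with 672 distinct genes, all found in the annotation. Members and lists were chosen with earlier results of these data known. Python 3.11.15, NumPy 2.4.6, pysam 0.24.0 and Matplotlib 3.10.9 were used.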

Additional observations from a re-analysis of the deposited data

How the results depend on the processing

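Counts of gained and lost regions and promoters moved with the number of peaks kept. With equal peak numbers in all 4 libraries, 247 regions and 263 promoters were gained in both lines and 169 regions and 137 promoters were lost. With equal numbers within each line these were 228, 243, 88 and 68. The other settings left the counts within 1.5 times of the reported ones, though not always the same members. With the 75% of peaks with the most signal, 117 regions were gained and 221 lost. Of these, 67 and 114 were among the reported ones. In a single line, gained regions numbered 245 to 410, lost regions 652 to 781, gained promoters 268 to 393 and lost promoters 534 to 563. The setting within a line removes peaks only from day 0. Of 34 named promoters gained in both lines, 31 stayed so with equal numbers in all 4 libraries and 25 with the 75% of peaks with the most signal. Of 34 lost ones 15 and 16 stayed so. List counts in KO15 alone and their overlap with WT and MUT were added after seeing the data. The mean log2 ratio of peak number was -0.50 over all peaks and reversed to 0.66 for peaks of at least 5 kb, and it ran from -0.54 to -0.47 over single lines. That of covered bases was 0.77 with equal peak numbers, and 0.40 to 0.52 over single lines. The median width change was 0.56 with equal peak numbers and 0.61 to 0.62 over single lines.

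Without the replicate block, 187 regions passed as wider and 0 as narrower, and 60 had more and 56 less relative signal. With the spread shared over 12 libraries, 280 regions were wider, and 158 had more and 105 less relative signal. Scaling by total peak signal gave 56 with more and 35 with less, and the highest signal of the peaks gave 11 and 28. Leaving out a line gave 37 to 43 with more and 11 to 30 with less, and 0 wider or narrower. Centring widths on the median region, or equal peak numbers (736 regions), also gave 0 wider and 0 narrower at an adjusted p of 0.05. The differences between KO and WT gave 0 regions under each setting, MUT in place of WT included. No named relative signal change reversed, and 14 of 20 were no longer past the threshold with the highest signal. Unknown depth limits all counts of gained and lost regions. Beyond the removal of day 0 peaks, the cause of these shifts was not tested.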
